A study of Mus musculus with 12 samples.

Results

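A set of 10 genes, named for the ubiquitin and autophagy programmes of maturing red cells, was followed across the marrow of Fanconi anemia knockout mice. The genes were chosen by symbol: Ube2h, Ube2o, Mkrn1, Fbxo7, Armc8, Trim58, Gabarapl2, Bnip3l, Tent5c and Ccndbp1. By the functions given below, Tent5c and Ccndbp1 are neither ubiquitin nor autophagy genes. The choice was made with earlier results of these arrays known, because several of them were higher in Fancc-/- than in Fancg-/- marrow. Of the 10 genes, 8 had at least 1 probe set annotated to that gene alone, and these 22 probe sets are the members among 34945 single-symbol probe sets of 18193 genes. Trim58 had no probe set in the annotation used here. The 3 probe sets that list Bnip3l list its pseudogene as well, so none of them is read as Bnip3l.

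RNA of unfractionated, uncultured bone marrow from tibia and femur was hybridized to Affymetrix mouse arrays, with 1 mouse per array and 12 arrays in all. For Fancg-/- replicates 1 and 3, which carried marks of both sexes (below), 1 mouse per array was not tested. The groups were 3 mice lacking Fancc (Fancc-/-), 3 lacking Fancg (Fancg-/-), 3 lacking both genes (Double Fancc-/-//Fancg-/-, called double knockout here) and 3 wild-type C57Bl/6 mice (WT). The products of both genes belong to the Fanconi anemia core complex, a ubiquitin ligase needed to repair crosslinked DNA. The age and sex of the mice are not given in the labels used here.

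Before it becomes a red cell, an erythroblast expels its nucleus, and the resulting reticulocyte removes its mitochondria, ribosomes and most other proteins. Ubiquitin conjugating enzymes (E2) and ligases (E3) mark proteins for the proteasome, while autophagy receptors and the ATG8 family of membrane proteins deliver mitochondria to lysosomes. Some genes of these pathways are induced late in erythroid maturation.

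The members lie on several chromosomes. On GRCm38.p6, Ube2h is at chr6:30211289-30304539, Mkrn1 at chr6:39397804-39423299, Ube2o at chr11:116537740-116581503 and Fbxo7 at chr10:86020449-86051873. Armc8 is at chr9:99478385-99568907, Gabarapl2 at chr8:111940703-111952915, Tent5c at chr3:100468057-100489192 and Ccndbp1 at chr2:121008395-121016912. The exon that each probe set reads is not given in the sources used here.

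RefSeq promoter windows, from 250 bases before to 50 bases after a gene's start, were present for 8 of the 10 genes, 11 windows in all. They were searched on both strands for AGATAA, a sequence bound by GATA1, and for CCNCNCCC, which fits many CACCC and GC boxes bound by KLF and Sp factors. AGATAA was found in 2 of the 11 windows (18.2%), against 11.2% of all 32851 windows. CCNCNCCC was found in 8 of the 11 (72.7%), against 49.5% of all windows, and the member windows were richer in G and C, with a median of 65% against 52.7%. Both windows with AGATAA belong to the genes whose probe sets disagreed most in what follows, Ube2h and Armc8, so these are shown together with the other start of Ube2h. All are on the minus strand of GRCm38.p6 and read 5′ to 3′ along the gene, with matches to either sequence in capitals.
Ube2h, outer start, chr6:30304490-30304789: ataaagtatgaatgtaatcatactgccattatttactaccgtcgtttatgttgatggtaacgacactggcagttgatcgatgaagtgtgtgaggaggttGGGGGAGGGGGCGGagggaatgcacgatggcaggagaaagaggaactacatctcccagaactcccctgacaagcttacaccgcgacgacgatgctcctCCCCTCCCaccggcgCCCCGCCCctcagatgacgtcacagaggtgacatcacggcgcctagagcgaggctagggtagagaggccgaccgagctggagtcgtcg
Ube2h, inner start, chr6:30243754-30244053: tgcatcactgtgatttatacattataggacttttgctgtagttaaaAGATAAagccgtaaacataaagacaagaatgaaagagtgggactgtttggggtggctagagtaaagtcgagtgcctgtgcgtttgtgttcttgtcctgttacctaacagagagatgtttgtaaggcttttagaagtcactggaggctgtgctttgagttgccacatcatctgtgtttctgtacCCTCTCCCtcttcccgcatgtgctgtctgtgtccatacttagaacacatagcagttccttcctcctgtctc
Armc8, chr9:99568850-99569149: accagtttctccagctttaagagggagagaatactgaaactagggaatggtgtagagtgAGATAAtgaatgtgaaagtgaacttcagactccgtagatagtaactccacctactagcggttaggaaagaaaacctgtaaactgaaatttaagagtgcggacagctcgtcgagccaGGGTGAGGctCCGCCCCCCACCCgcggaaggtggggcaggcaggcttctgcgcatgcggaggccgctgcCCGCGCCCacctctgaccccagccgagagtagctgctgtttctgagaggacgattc
Counted from the start, AGATAA begins at position -204 of the inner Ube2h start and at -191 of Armc8. The outer start of Ube2h has 5 matches to CCNCNCCC and its inner start 1, while Armc8 has 4. A match is a description of the letters and not a measured binding site.

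Array medians ran from 4.79 to 4.87 on the log2 scale, and the number of arrays limits the precision. On both Fancg probe sets the 3 double-knockout arrays (5.41 to 5.83) and Fancg-/- replicate 2 (6.00 and 5.92) lay below WT (6.80 to 6.92). Replicates 1 and 3 labelled Fancg-/- were also below WT but nearer to it, at 6.43 to 6.67. The Fancc-/- arrays read 6.43 to 6.78 there. The 3 Fancc probe sets were not lower in the arrays labelled Fancc-/-, and whether they lie within the deleted sequence is not given, so they may check nothing. Xist, which marks female cells, read 11.19 to 12.13 in Fancc-/- arrays, 5.99 to 7.39 in double-knockout arrays and 11.30 to 12.23 in WT arrays on its brightest probe set. Eif2s3y, on the Y chromosome, read 8.81 to 9.35 in the double knockout and 2.89 to 3.20 in WT. Fancg-/- replicate 2 had male marks only, at 7.34 for Xist and 9.09 for Eif2s3y, and replicates 1 and 3 had marks of both sexes, with Xist at 11.31 and 10.75 and Eif2s3y at 7.64 and 5.78. Whether replicates 1 and 3 each hold the RNA of 1 Fancg-/- mouse was not tested. For the double knockout against WT or against Fancc-/-, these sex marks and the genotype cannot be told apart. The same holds for Fancg-/- replicate 2 against WT or against Fancc-/-. On the values given, Eif2s3y was also higher in every array labelled Fancg-/- than in WT. Some counts or medians for the members, pathway lists and the erythroid and B cell markers are also given without Fancg-/- replicates 1 and 3, but not all of them. Single-gene Fancg-/- values outside the members are not given in that way. As marrow markers, 18 of 19 erythroid, 12 of 12 neutrophil and 12 of 12 B cell genes with a probe set were bright enough to be tested.

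Values are log2 signals after RMA, a method that corrects background, scales arrays to a common distribution and summarizes probes, and a difference of 1 is a 2-fold change. A probe set was tested if it was above the array median on at least 3 arrays, which held for 20553 probe sets and for all 22 member probe sets. Tests were made with limma in 1 model over the 12 arrays, and the call rule was an adjusted p below 0.05 over all probe sets tested. The contrast of Fancc-/- with Fancg-/- chose the members, so it is described without a test. Comparisons of either single knockout with WT share arrays with that choice, and their calls are no independent evidence for the members. All 3 comparisons with WT share the WT arrays.

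**Figure D1:**
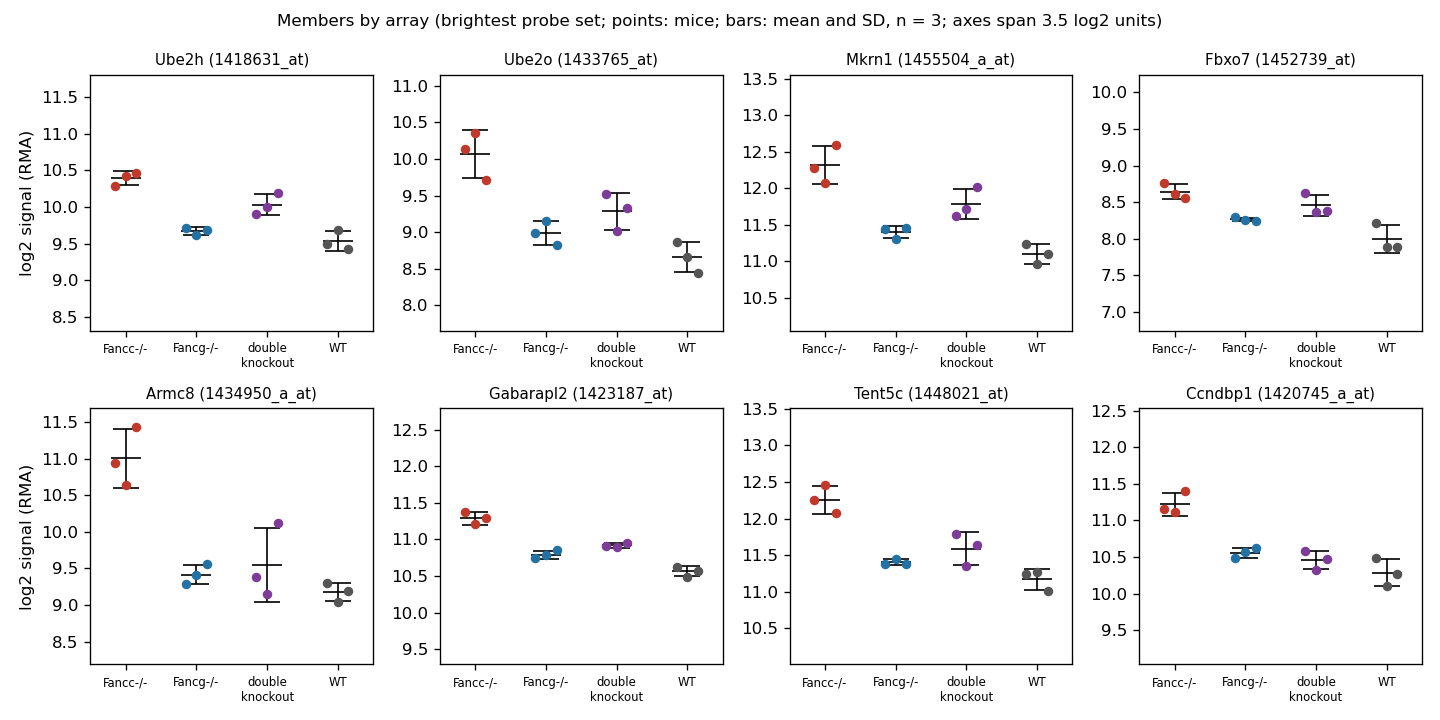
The log2 signal (vertical axis) of the brightest probe set of each of the 8 measured members is plotted for Fancc-/-, Fancg-/-, double-knockout and WT mice, with 1 point per mouse and bars for the mean and SD of 3 mice. The Fancc-/- points lie above all Fancg-/- and WT points in each of the 8 panels.

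Against WT, the members were higher in Fancc-/- marrow and, for fewer probe sets and by less, in double-knockout marrow. In Fancc-/-, 13 of the 22 probe sets rose, where 1.68% of all tested probe sets did, and 0 fell, where 1.92% of all did. Each of the 8 genes had at least 1 probe set among those 13. In the double knockout 4 of 22 rose (Mkrn1, Ube2h, Gabarapl2 and Tent5c, 1 probe set each), where 1.85% of all did, and 0 fell, where 2.06% of all did. At an unadjusted p below 0.05, 8 were higher and 2 lower in the double knockout, against 10.6% and 12.8% of all probe sets. In the libraries labelled Fancg-/-, 0 rose and 0 fell (0.00973% and 0.0341% of all). At an unadjusted p below 0.05, 2 were higher and 0 lower there, against 2.61% and 3.86% of all probe sets. For Fancc-/- these counts were 15 and 0, against 7.56% and 11.1%. By the arrays themselves, 14 probe sets had all Fancc-/- arrays above all WT arrays (10.1% of all probe sets) and 0 had them all below (12.8%). For Fancg-/- these counts were 6 (7.66%) and 1 (8.96%), and for the double knockout 8 (13%) and 2 (15.8%). The median change over the 22 probe sets was 0.88 for Fancc-/-, 0.20 for Fancg-/- and 0.27 for the double knockout, against -0.03 for Fancc-/-, 0.00 for Fancg-/- and -0.01 for the double knockout over all probe sets tested. In whole marrow, a higher share of a cell type and more RNA per cell cannot be told apart.

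**Figure D2:**
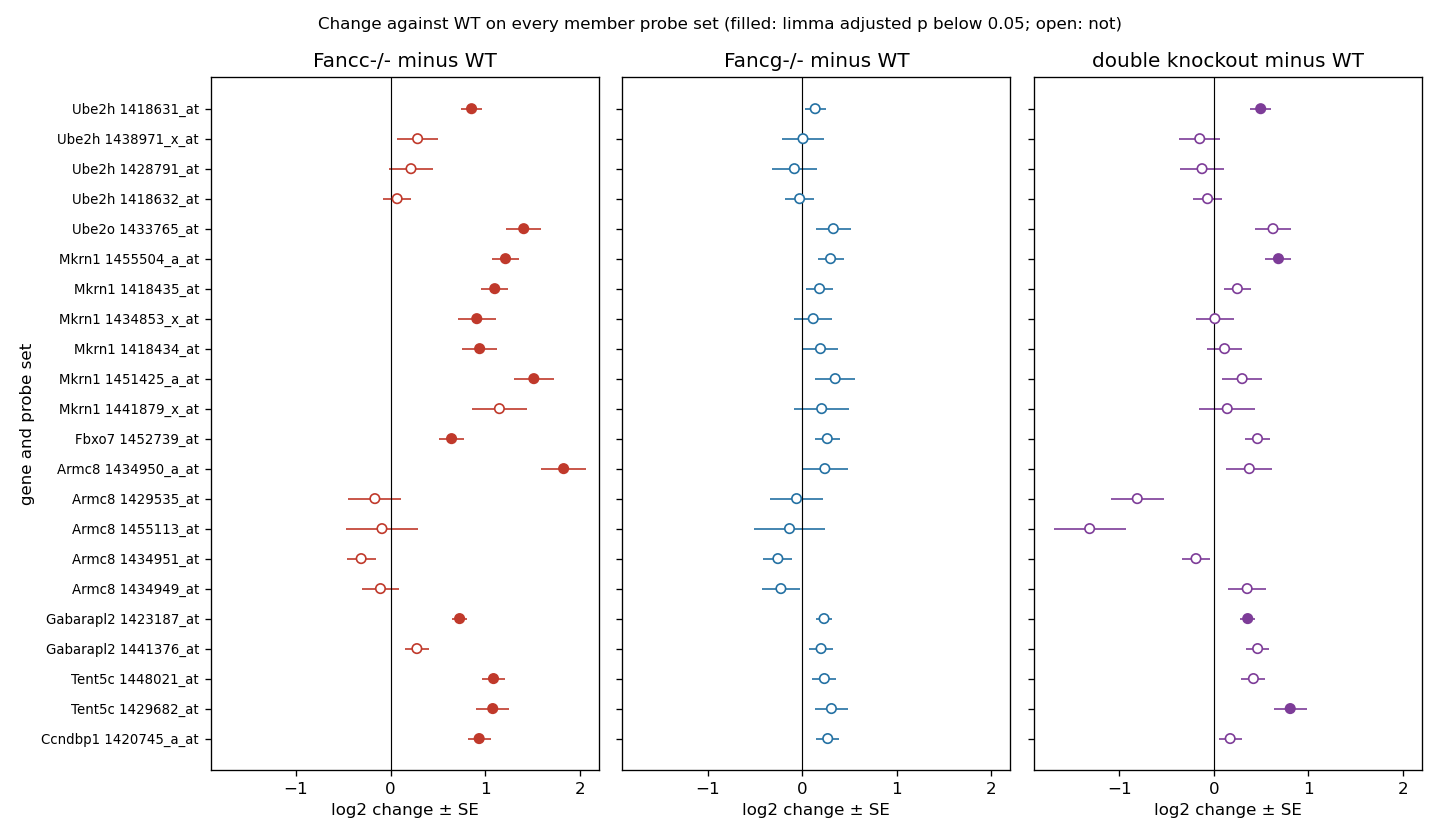
The log2 change against WT with its SE (horizontal axis) is plotted for each of the 22 member probe sets (vertical axis) in a panel per knockout group, with filled points for an adjusted p below 0.05. In Fancc-/- 13 points are filled, in Fancg-/- 0 and in the double knockout 4, and the probe sets of Ube2h and Armc8 do not move together.

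The ubiquitin conjugating enzymes come first. Ube2h is the E2 that works with the CTLH ligase, a multi-subunit E3. On its brightest probe set, 1418631_at, Ube2h read 10.29, 10.43 and 10.46 in Fancc-/-, 9.71, 9.62 and 9.69 in Fancg-/-, 9.90, 10.00 and 10.19 in the double knockout, and 9.50, 9.69 and 9.42 in WT. The Fancc-/- arrays lay above all others, the double-knockout arrays above all Fancg-/- and WT arrays, and Fancg-/- overlapped WT. The change was 0.86 ± 0.11 (SE, n = 3 per group) in Fancc-/-, or 1.81-fold (limma adjusted p = 0.00284), and 0.49 ± 0.11 in the double knockout, or 1.41-fold (adjusted p = 0.0385). In Fancg-/- it was 0.14 ± 0.11 (adjusted p = 0.964).

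The other 3 Ube2h probe sets did not show this pattern. Their changes in Fancc-/- were 0.29 ± 0.22 on 1438971_x_at, 0.22 ± 0.23 on 1428791_at and 0.07 ± 0.15 on 1418632_at, and none passed (adjusted p from 0.516 to 0.846). On 1428791_at Ube2h read 8.22, 8.91 and 7.79 in Fancc-/- against 8.22, 8.16 and 7.89 in WT, so Fancc-/- replicate 2 alone was high and the groups overlapped. On 1438971_x_at Fancc-/- replicate 2 was again the high array, at 9.90 against 9.11 and 8.92 on the other Fancc-/- arrays and 8.92 to 9.12 in WT. Without that replicate the changes in Fancc-/- were -0.01, -0.09 and -0.07 on the 3 probe sets in the order given. The double-knockout changes were -0.15, -0.13 and -0.07. The Ube2h call rests on 1 of its 4 probe sets.

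Ube2o is a large hybrid enzyme with E2 and E3 activity that tags ribosomal and unassembled proteins in reticulocytes. Its only probe set, 1433765_at, read 10.14, 10.35 and 9.72 in Fancc-/-, 8.99, 9.15 and 8.83 in Fancg-/-, 9.52, 9.02 and 9.33 in the double knockout, and 8.87, 8.67 and 8.45 in WT. The Fancc-/- arrays were the highest, those of the double knockout lay above WT, and Fancg-/- overlapped both the double knockout and WT. Ube2o rose in Fancc-/- by 1.41 ± 0.19, or 2.65-fold (adjusted p = 0.00284). Its change was 0.62 ± 0.19 in the double knockout (adjusted p = 0.0749) and 0.33 ± 0.19 in Fancg-/- (adjusted p = 0.882).

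Among the ligases, Mkrn1 is a RING finger E3 and had 6 probe sets, which agreed in direction in Fancc-/-. On 1455504_a_at, the brightest, Mkrn1 read 12.28, 12.08 and 12.60 in Fancc-/-, 11.44, 11.31 and 11.46 in Fancg-/-, 11.62, 11.72 and 12.01 in the double knockout, and 11.24, 10.96 and 11.10 in WT. No 2 groups overlapped, in the order Fancc-/-, double knockout, Fancg-/- and WT. It rose by 1.22 ± 0.14 in Fancc-/- (2.32-fold, adjusted p = 0.00145) and by 0.68 ± 0.14 in the double knockout (1.6-fold, adjusted p = 0.0262), with 0.30 ± 0.14 in Fancg-/- (adjusted p = 0.772).

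The 6 probe sets ranged from 0.91 to 1.51 in Fancc-/-, and 5 of them passed. The dim 1441879_x_at read 6.55, 7.06 and 7.04 in Fancc-/-, against 6.01, 5.80 and 5.40 in WT, and its change of 1.15 ± 0.29 had an adjusted p = 0.0540. The next brightest, 1418435_at, rose by 1.10 ± 0.14 in Fancc-/- (adjusted p = 0.00269), with its arrays at 11.04, 11.29 and 11.40 in Fancc-/- against 10.35, 10.05 and 10.02 in WT. The double-knockout range was 0.01 to 0.68 and only 1455504_a_at passed. Over the other 5 probe sets the double-knockout and WT arrays overlapped; on 1451425_a_at, for example, they read 9.35, 8.82 and 9.44 in the double knockout against 9.05, 8.90 and 8.75 in WT. Probe sets ending in _x_at contain probes that can match other transcripts. The size of the Mkrn1 change outside Fancc-/- thus differed between its probe sets.

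Fbxo7 is the F-box subunit that selects substrates for an SCF ligase and also binds PI31, a regulator of the proteasome. On 1452739_at it read 8.76, 8.61 and 8.56 in Fancc-/-, 8.29, 8.25 and 8.25 in Fancg-/-, 8.63, 8.37 and 8.38 in the double knockout, and 8.22, 7.89 and 7.89 in WT. Every knockout array was above every WT array. Fbxo7 rose by 0.65 ± 0.13 in Fancc-/- (1.56-fold, adjusted p = 0.0210), with 0.46 ± 0.13 in the double knockout (adjusted p = 0.0665) and 0.26 ± 0.13 in Fancg-/- (adjusted p = 0.802). Its call in Fancc-/- was lost without WT replicate 2 (adjusted p = 0.0982) or 3 (0.0968), without Fancc-/- replicate 1 (0.0585), without Fancg-/- replicates 1 and 3 (0.0627) and in a fit of Fancc-/- and WT alone (0.109), in a range of 0.0115 to 0.109 over all alternatives.

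Armc8 is an armadillo repeat subunit of the CTLH ligase that Ube2h serves, and its 5 probe sets disagreed. On 1434950_a_at it read 10.94, 10.64 and 11.44 in Fancc-/-, 9.29, 9.41 and 9.56 in Fancg-/-, 9.38, 9.15 and 10.12 in the double knockout, and 9.30, 9.05 and 9.19 in WT. The Fancc-/- arrays stood apart from all others, and the other groups overlapped each other, with double-knockout replicate 3 the highest of them. The change in Fancc-/- was 1.83 ± 0.24, or 3.56-fold (adjusted p = 0.00284), above that of any other member probe set.

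On the other 4 Armc8 probe sets the change in Fancc-/- was between -0.31 and -0.09, and none passed. On 1429535_at Armc8 read 8.29, 8.60 and 7.74 in Fancc-/-, against 8.32, 8.60 and 8.22 in WT. The double-knockout arrays were lower there, at 8.20, 7.05 and 7.45, a change of -0.81 ± 0.28 (adjusted p = 0.111). On 1455113_at the double knockout read 6.21, 4.99 and 5.34, against 6.83, 7.08 and 6.57 in WT, with a change of -1.31 ± 0.38 (adjusted p = 0.0697). All double-knockout arrays were below all WT arrays on these 2 probe sets, and replicate 1 was the least low. Without double-knockout replicate 1 both passed, at -1.13 (adjusted p = 0.0126) and -1.66 (0.0148), and 1455113_at passed as well without Fancc-/- replicate 2 (0.0452) or 3 (0.0249), in a fit whose shared spread those arrays enter. On 1434951_at and 1434949_at the double-knockout changes were -0.19 and 0.35, which did not pass. No single direction can be given for Armc8: 1 of 5 probe sets was high in Fancc-/-, and 2 others had their lowest values in the double knockout.

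**Figure D3:**
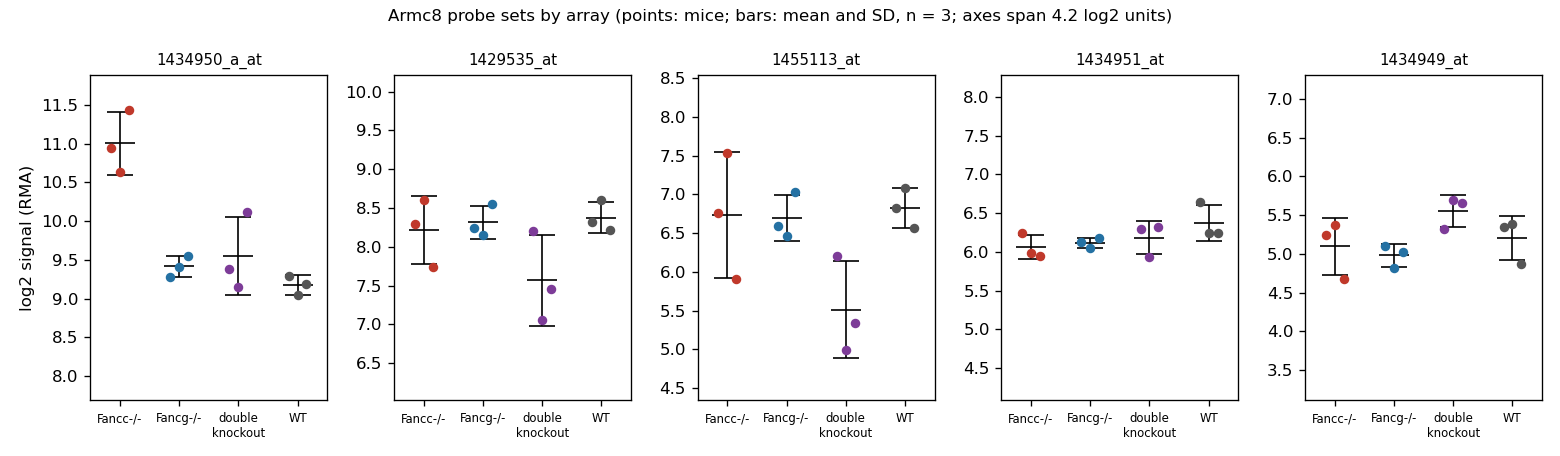
The log2 signal (vertical axis) of the 5 Armc8 probe sets is plotted by array, with 1 point per mouse and bars for the mean and SD of 3 mice in Fancc-/-, Fancg-/-, double knockout and WT. Fancc-/- stands apart on 1434950_a_at only, at 10.64 to 11.44, and the double knockout is lowest on 1429535_at and 1455113_at.

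Of the autophagy members, Gabarapl2 (GATE-16) is an ATG8 family protein that is attached to the autophagosome membrane. On 1423187_at it read 11.38, 11.20 and 11.29 in Fancc-/-, 10.74, 10.79 and 10.85 in Fancg-/-, 10.91, 10.89 and 10.96 in the double knockout, and 10.62, 10.49 and 10.57 in WT. The 4 groups did not overlap, in the order Fancc-/-, double knockout, Fancg-/- and WT. Gabarapl2 rose by 0.73 ± 0.08 in Fancc-/- (1.66-fold, adjusted p = 0.00140) and by 0.36 ± 0.08 in the double knockout (1.28-fold, adjusted p = 0.0393). In Fancg-/- the change was 0.23 ± 0.08, with an adjusted p = 0.587 (unadjusted 0.0158). The dim probe set 1441376_at gave 0.28 ± 0.12 in Fancc-/- (adjusted p = 0.257) and 0.46 ± 0.12 in the double knockout (0.0584), with the double-knockout arrays at 5.95, 5.88 and 6.17 and the WT arrays at 5.70, 5.50 and 5.41.

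Tent5c is a poly(A) polymerase outside the canonical family, which lengthens the tails of mRNAs. On 1448021_at it read 12.25, 12.45 and 12.07 in Fancc-/-, 11.38, 11.45 and 11.38 in Fancg-/-, 11.79, 11.35 and 11.63 in the double knockout, and 11.24, 11.27 and 11.00 in WT. On 1429682_at it read 10.13, 9.61 and 10.02 in Fancc-/-, 9.31, 9.31 and 8.83 in Fancg-/-, 9.84, 9.47 and 9.63 in the double knockout, and 8.69, 8.86 and 8.97 in WT. Both probe sets had all Fancc-/- and all double-knockout arrays above WT. The rise in Fancc-/- was 1.09 ± 0.13 and 1.08 ± 0.18 (2.13-fold and 2.11-fold, adjusted p = 0.00158 and 0.00816). In the double knockout the changes were 0.42 ± 0.13 (adjusted p = 0.0774) and 0.81 ± 0.18 (1.75-fold, adjusted p = 0.0337), so 1 of the 2 probe sets passed.

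Ccndbp1 encodes a helix-loop-helix protein that binds D-type cyclins. On 1420745_a_at it read 11.16, 11.11 and 11.40 in Fancc-/-, 10.48, 10.56 and 10.62 in Fancg-/-, 10.58, 10.32 and 10.47 in the double knockout, and 10.48, 10.11 and 10.27 in WT. Only Fancc-/- stood clear of every other group, while the double knockout overlapped both WT and Fancg-/-. Ccndbp1 rose by 0.94 ± 0.12 in Fancc-/- (1.91-fold, adjusted p = 0.00269). It was at 0.27 ± 0.12 in Fancg-/- (adjusted p = 0.753) and 0.17 ± 0.12 in the double knockout (adjusted p = 0.428).

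Across the brightest probe set of each gene, the order of the group means was the same in 7 of the 8 genes: Fancc-/-, double knockout, Fancg-/-, WT, from high to low. In Ccndbp1 the Fancg-/- mean was above that of the double knockout. Fancc-/- above Fancg-/- in this order is the contrast that chose the members, and the share of all genes with this order was not counted. For Ube2h and Armc8 the brightest probe set is the one that differed from their others. Neighbours among the group means often overlapped. Double knockout and Fancg-/- arrays overlapped in 4 of the 8 genes (Tent5c, Ccndbp1, Armc8 and Ube2o), and Fancg-/- and WT arrays in 3 (Ube2h, Armc8 and Ube2o). Double-knockout arrays were wholly above Fancg-/- in 4 genes, against 10.3% of all tested probe sets. Fancg-/- arrays were wholly above WT in 5, against 7.66%.

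The contrast that chose the members is given as values only. Over the 22 probe sets, the median difference of Fancc-/- minus Fancg-/- was 0.69, and in 14 of them all Fancc-/- arrays were above all Fancg-/- arrays, where 6.09% of all tested probe sets had such a gap. In 0 of them were they all below, against 6.77% of all. The differences on the brightest probe sets ran from 0.38 for Fbxo7 to 1.59 for Armc8. Set against Fancg-/- replicate 2 alone, all Fancc-/- arrays were above it on 15 of the 22 probe sets, against 18.8% of all. Double knockout minus Fancc-/-, which shares the Fancc-/- arrays, had a median of -0.59 with 12 of 22 probe sets wholly below Fancc-/- (8.08% of all) and 0 wholly above (9.32% of all). Double knockout minus Fancg-/- had a median of 0.07, with 7 wholly above (10.3% of all) and 1 wholly below (9.29% of all), the Armc8 probe set 1455113_at.

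The calls differed in how much they depended on single arrays. In Fancc-/-, 10 of the 13 calls held in every alternative in which the probe set was tested, and those lost in at least 1 were Fbxo7 and the Mkrn1 probe sets 1434853_x_at and 1418434_at. Without WT replicate 2 or 3, 10 probe sets were called in Fancc-/-. In the double knockout none of the 4 calls held in all alternatives: 0 were called without any 1 of the 3 WT replicates, without double-knockout replicate 2 or 3, or without Fancg-/- replicates 1 and 3, and 1 or 2 without a single Fancg-/- replicate. Without Fancc-/- replicate 3, 8 were called higher and 1 lower. Calls over all 20553 probe sets moved as well. In the double knockout they numbered 803 in either direction, and 125, 23 and 37 without WT replicates 1, 2 and 3. They were 3046, 56 and 24 without double-knockout replicates 1, 2 and 3, and 2040 without Fancc-/- replicate 3. In Fancc-/- the calls numbered 739. With single arrays left out they ran from 226 (without WT replicate 2) to 1018 (without double-knockout replicate 1). With Fancg-/- replicate 2 alone standing for Fancg-/-, 0 members were called against WT and the median change was 0.11, with the lone array assumed to vary like the other groups. The 22 Fancg-/- changes then ran from -0.39 for Armc8 1434949_at to 0.49 for Ube2o.

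Markers of the red cell lineage had positive median changes in all 3 knockout groups, as the members did, but of different sizes. Of 18 tested erythroid marker genes, 14 rose in Fancc-/-, 0 passed in Fancg-/- and 6 rose in the double knockout, and none fell. At an unadjusted limma p below 0.05, 18, 15 and 13 of these markers were higher, in the same order. Among all probe sets 7.56%, 2.61% and 10.6% were. The median change of the markers was 1.14 for Fancc-/- (range 0.65 to 1.75), 0.70 for Fancg-/- (0.39 to 1.05) and 0.71 for the double knockout (0.47 to 1.28). The 8 members, each on its brightest probe set, had medians of 1.01, 0.25 and 0.44 in that order. Alas2, the erythroid enzyme that starts heme synthesis, was at 12.89 ± 0.14 (SD, n = 3) in Fancc-/-, 12.05 ± 0.03 in Fancg-/-, 12.19 ± 0.18 in the double knockout and 11.67 ± 0.24 in WT. Its Fancg-/- change of 0.39 was the lowest of the 18, so Alas2 does not stand for the list. Without Fancg-/- replicates 1 and 3, 8 erythroid markers were called for Fancc-/-, 0 for Fancg-/- and 2 for the double knockout, and the Fancg-/- median was 0.85. With 1 array left out, 6 (without WT replicate 3) to 15 (without double-knockout replicate 1) were called in Fancc-/-, and in the double knockout 0 (without WT replicate 2 or 3 or double-knockout replicate 3) to 9 (without Fancc-/- replicate 3). The summed log2 level of the 18 genes was 186.3 to 195.2 in Fancc-/-, 180.4 to 185.2 in Fancg-/-, 178.9 to 193.8 in the double knockout and 168.2 to 174.1 in WT, and no marker was near the floor of the scale (lowest value 6.69).

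B cell markers went the other way, with 11 of 12 lower in Fancc-/-, 0 of 12 past the test in Fancg-/- (11 at an unadjusted p below 0.05) and 11 of 12 lower in the double knockout. Their summed log2 level was 70.2 to 76.8 in Fancc-/-, 77.2 to 97.96 in Fancg-/-, 76.4 to 77.4 in the double knockout and 102.2 to 108.4 in WT. The lowest value of a B cell marker was 3.32 in Fancc-/-, 3.60 in Fancg-/-, 3.06 in the double knockout and 4.90 in WT. In the knockout groups these lowest values were below the array medians, so not every B cell marker was clear of the floor of the scale there. In Fancg-/- the arrays differed widely, with a centred median of -0.72, -0.38 and 0.95, and 8 markers were called lower without replicate 3 and 2 without replicates 1 and 3. For the double knockout the count was 2 without WT replicate 1, 1 without double-knockout replicate 2, and 0 without WT replicate 2 or 3 or double-knockout replicate 3. Of 7 T and NK cell markers, 2 were called lower in Fancc-/- (Cd2 and Gzma), with a median change of -0.79. Their centred median was 0.04, 0.23 and -1.29 in Fancc-/- replicates 1, 2 and 3, against 0.24 to 0.36 in WT, so replicate 3 was far the lowest. Of 12 neutrophil markers, 2 were lower in the double knockout (Elane and Mpo), with a median of -0.07. Monocyte, megakaryocyte and stroma markers had 0 called in any comparison, although the stroma median was 0.43 for Fancc-/-, 1.57 for Fancg-/- and 0.27 for the double knockout. The 4 named markers of these lists were chosen after their values were seen. The part of any lineage in the member changes was not tested.

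**Figure D4:**
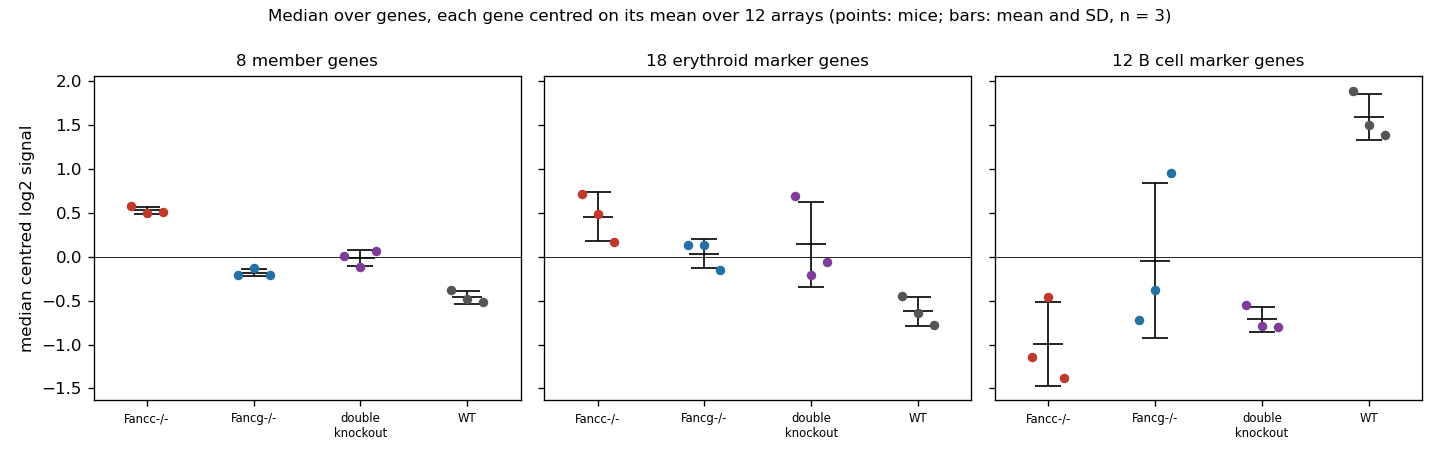
For each array, the median over genes of the log2 signal centred on each gene's mean over 12 arrays (vertical axis) is plotted for the 8 members, 18 erythroid markers and 12 B cell markers, with 1 point per mouse and bars for the mean and SD of 3 mice per group. The members run from 0.50 to 0.58 in Fancc-/- and from -0.52 to -0.38 in WT, and double-knockout replicate 1 is at 0.01 for the members and 0.70 for the erythroid markers.

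Array by array, the members and the erythroid markers did not follow each other closely in every group. Each gene was centred on its mean over the 12 arrays and the median over the genes was taken. The 8 members then lay between 0.50 and 0.58 in Fancc-/-, -0.21 and -0.13 in Fancg-/-, -0.12 and 0.07 in the double knockout, and -0.52 and -0.38 in WT. The erythroid markers lay between 0.17 and 0.71 in Fancc-/-, -0.15 and 0.13 in Fancg-/-, -0.21 and 0.70 in the double knockout, and -0.78 and -0.45 in WT. In Fancg-/- the members were below the erythroid markers on each array, by a difference of -0.33, -0.26 and -0.06, while in WT they were above them, at 0.07, 0.15 and 0.26. In Fancc-/- the difference was -0.14, 0.01 and 0.34, and in the double knockout -0.69, 0.09 and 0.13, with double-knockout replicate 1 the widest gap of the 12 arrays. These differences are relative to the centring and were not tested.

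Other genes of the same pathways and their regulators stood in 7 lists, 106 genes of which 93 were tested, each by its brightest probe set. In Fancc-/- 10 rose and 0 fell, in Fancg-/- 0 passed, and in the double knockout 4 rose and 0 fell. Among all genes tested, 1.96% rose and 2.01% fell in Fancc-/-, 0.0084% rose and 0.0336% fell in Fancg-/-, and 1.86% rose and 2.32% fell in the double knockout. These counts depended on single arrays: without Fancg-/- replicates 1 and 3, the calls were Ube2l6 and Gata1 for Fancc-/- (2), none for Fancg-/- (0) and Ulk1 for the double knockout (1). In Fancc-/- the count was 2 without WT replicate 2 or 3, 3 without WT replicate 1, 4 without Fancc-/- replicate 2 or Fancg-/- replicate 2, 5 without Fancg-/- replicate 1, and 6 without Fancc-/- replicate 1 or double-knockout replicate 2. The double-knockout count was 0 without any 1 WT replicate or without double-knockout replicate 2 or 3, 8 without Fancc-/- replicate 3 and 10 without double-knockout replicate 1, where 2 and 7 were called lower. Most genes of these pathways did not pass, and their medians per list were between -0.02 and 0.36 in Fancc-/- and between 0.04 and 0.37 in the double knockout.

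The CTLH ligase had 10 tested genes besides Armc8, and 2 rose in Fancc-/-: Ranbp10, a scaffold subunit (0.75 ± 0.17, adjusted p = 0.0334), and Ypel5, a small associated subunit (0.55 ± 0.13, adjusted p = 0.0386). In the double knockout they were at 0.58 ± 0.17 (adjusted p = 0.0723) and 0.36 ± 0.13 (0.122), and none of the 10 passed. The catalytic RING subunits did not pass in Fancc-/-: Maea was at -0.10 ± 0.11 (adjusted p = 0.685) and Rmnd5a at 0.34 ± 0.15 (0.244). In Fancg-/- the smallest p values were those of Ranbp10, at 0.40 ± 0.17 (adjusted p = 0.719), and Gid8, at 0.27 ± 0.19 (0.940). Of 23 other E2 enzymes, Ube2l6, the E2 of the ubiquitin-like protein ISG15, rose in Fancc-/- (1.17 ± 0.17, adjusted p = 0.00447), as did Ube2b, an E2 of histone and DNA damage signalling (0.55 ± 0.12, adjusted p = 0.0308). Ube2j2, an E2 of the endoplasmic reticulum, rose in the double knockout (0.63 ± 0.16, adjusted p = 0.0488). In Fancg-/- the 2 with the smallest p were Ube2v2 (0.36 ± 0.16, adjusted p = 0.771) and Ube2s (0.35 ± 0.18, adjusted p = 0.835).

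Of 14 genes of ubiquitin supply and the cullin ligase core, 0 passed in any comparison. Psmf1, which encodes the PI31 protein that Fbxo7 binds, was at 0.38 ± 0.18 in Fancc-/- (adjusted p = 0.292), 0.39 ± 0.18 in Fancg-/- (0.787) and 0.60 ± 0.18 in the double knockout (0.0807). Psmf1 had the smallest p in both single knockouts, followed by Nedd8 in Fancc-/- (-0.20 ± 0.11, adjusted p = 0.339) and Cul2 in Fancg-/- (0.15 ± 0.12, 0.961). Uba6, an E1 enzyme, had the smallest in the double knockout (-0.73 ± 0.21, adjusted p = 0.0698).

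In the autophagy list, Ulk1, the kinase that starts autophagosome formation and is known from mouse reticulocytes, rose in Fancc-/- (0.80 ± 0.19, adjusted p = 0.0402) and in the double knockout (1.03 ± 0.19, adjusted p = 0.0209). Wipi1, a phosphoinositide-binding autophagy protein, rose in Fancc-/- (0.68 ± 0.16, adjusted p = 0.0349), and Atg4b, the protease that processes ATG8 proteins, in the double knockout (0.62 ± 0.13, adjusted p = 0.0267). These were 2 of 21 tested genes in each of the 2 comparisons. In Fancg-/-, Atg4b was at 0.38 ± 0.13 (adjusted p = 0.473) and Wipi1 at 0.40 ± 0.16 (0.665).

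The other ATG8 family genes did not pass in any comparison, with 0 of 4 called. Map1lc3b was at 0.49 ± 0.15 in Fancc-/- (adjusted p = 0.0996), 0.20 ± 0.15 in Fancg-/- (0.954) and 0.49 ± 0.15 in the double knockout (0.0815). Gabarap was at -0.01 ± 0.08 for Fancc-/-, 0.04 ± 0.08 for Fancg-/- and -0.04 ± 0.08 for the double knockout (adjusted p = 0.944, 0.988 and 0.786). Its mean level was 11.68 in Fancc-/-, 11.74 in Fancg-/-, 11.65 in the double knockout and 11.69 in WT. Gabarapl1 was at 0.37 ± 0.20 for Fancc-/-, -0.02 ± 0.20 for Fancg-/- and 0.68 ± 0.20 for the double knockout (adjusted p = 0.357, 0.996 and 0.0734) on a probe set whose _s_at ending marks probes shared by more than 1 transcript. Map1lc3a was at -0.15 ± 0.33 for Fancc-/-, 0.15 ± 0.33 for Fancg-/- and 0.25 ± 0.33 for the double knockout. A difference between Gabarapl2 and these genes was not tested.

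Of 11 tested mitophagy and selective autophagy receptors, Bcl2l13, a mitochondrial receptor, rose in Fancc-/- (0.73 ± 0.16, adjusted p = 0.0333) and in the double knockout (0.80 ± 0.16, adjusted p = 0.0280), and was at 0.32 ± 0.16 in Fancg-/- (0.834). Bnip3, the relative of Bnip3l, was at 0.24 ± 0.26 for Fancc-/-, 0.01 ± 0.26 for Fancg-/- and 0.19 ± 0.26 for the double knockout, and did not pass. In Fancg-/- the smallest p values were those of Calcoco1 (-0.35 ± 0.18, adjusted p = 0.828) and Phb2 (0.22 ± 0.11, 0.829). Among 10 regulators, the erythroid transcription factors Tal1 (1.28 ± 0.31, adjusted p = 0.0445) and Gata1 (1.19 ± 0.20, 0.00915) and the GATA1 cofactor Zfpm1 (0.93 ± 0.20, 0.0239) rose in Fancc-/-. In Fancg-/- Gata1 was at 0.68 ± 0.20 (adjusted p = 0.398) and Zfpm1 at 0.50 ± 0.20 (0.665), and in the double knockout at 0.57 ± 0.20 (0.119) and 0.55 ± 0.20 (0.120).

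**Figure D5:**
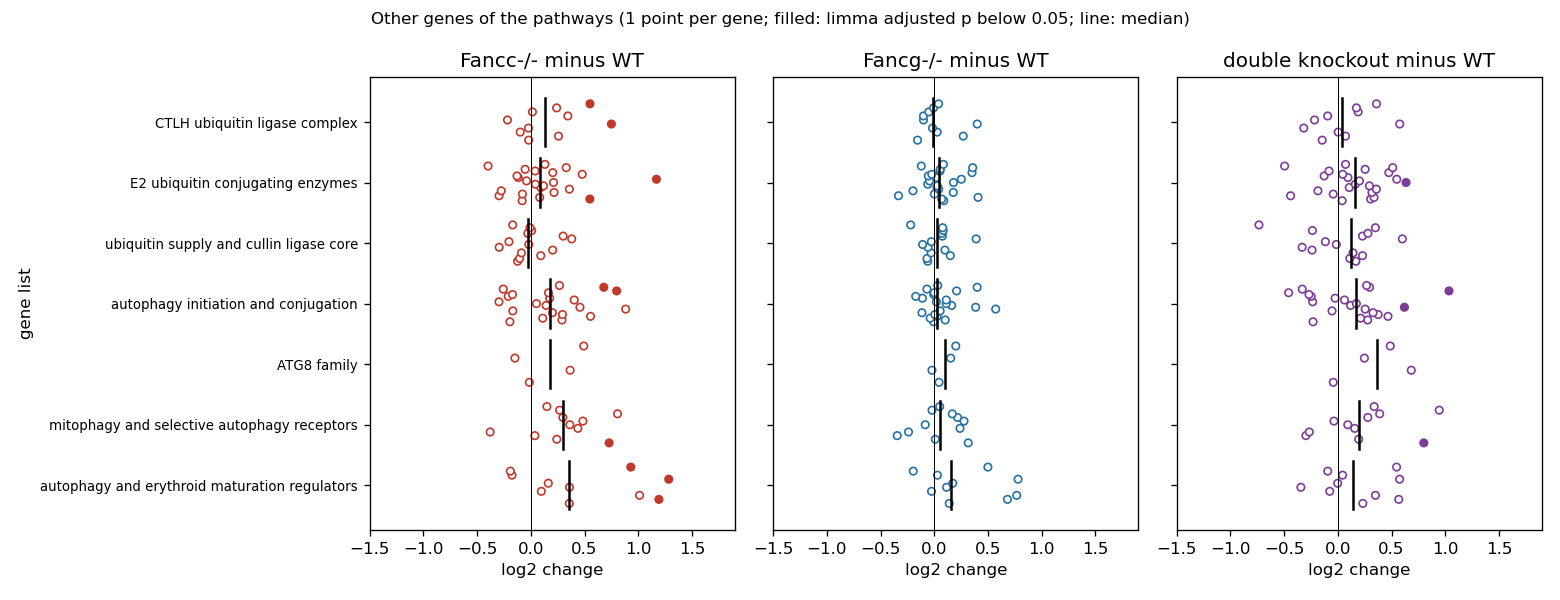
The log2 change against WT (horizontal axis) is plotted for the 93 tested genes of the 7 pathway lists (rows), 1 point per gene, with filled points for an adjusted p below 0.05 and a line at each list's median. There are 10 filled points for Fancc-/-, 0 for Fancg-/- and 4 for the double knockout, all of them to the right of 0.

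The genes whose pattern over the 12 arrays was nearest to that of the members were Slc25a39, Rnf10, Hbb-b2, Alas2 and Sh3glb1. Nearness was the root mean square difference between a gene's centred log2 values and the median of the 8 members' centred values, and it was 0.0981, 0.104, 0.120, 0.125 and 0.141 for these genes, against a median of 0.424 over 11911 genes. Slc25a39, a mitochondrial carrier, read 12.76, 12.81 and 13.01 in Fancc-/-, 12.05, 12.10 and 12.12 in Fancg-/-, 12.20, 12.06 and 12.41 in the double knockout, and 11.99, 11.89 and 11.83 in WT. Fancc-/- was highest and WT lowest there too, with the double knockout and Fancg-/- overlapping. Among the members themselves the difference was 0.115 for Gabarapl2, 0.133 for Tent5c, 0.139 for Ube2h, 0.154 for Ccndbp1, 0.175 for Fbxo7, 0.184 for Mkrn1, 0.238 for Ube2o and 0.457 for Armc8. The value of Armc8 was above the median over all genes. The 12 points share 4 groups and are no independent samples of the pattern.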

How the data were processed

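The deposited table holds the log2 signals of 45101 probe sets, 1 column per array and all 12 columns mapped to a sample. The submitters' processing notes name RMA and Partek without versions, roles or order, and per the labels' protocols 2 µg of total RNA (0.91 µg for Fancg-/- replicate 3) was amplified from an oligo-dT primer. Values ran from 2.43 to 14.6, and 64 control probe sets, 932 with several symbols and 9160 with none were left out. Probe sets were named through the platform annotation, with 34741 of 34945 single symbols matched to GRCm38.p6 by Entrez ID and 0 changed. The values were fitted with limma 3.58.1 in R 4.3.3 (4 groups, 8 residual degrees of freedom, variance trend, 2-sided tests, Benjamini-Hochberg over 20553 probe sets). The procedure was also run on simulated data. There the noise was drawn independently for each probe set and array, so deviations shared within an array were not covered. Each probe set was kept separate; for pathway lists a gene was read on its tested probe set with the highest mean.

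The members, lists and tests were chosen with earlier results of these data known. All members were named with every probe set. From each pathway list up to 4 called genes per direction were named, or the 2 of smallest p, and Bnip3, Maea, Rmnd5a and the ATG8 genes in any case. Alternatives covered the filter, 1 probe set per gene, array scaling, the variance model, the groups fitted, the replicate number as a block and leaving out arrays. Fancc-/- and WT arrays of the same replicate number deviated together (correlations of 0.16, 0.29 and 0.20 over probe sets). A correlation of -0.41 for Fancg-/- replicate 3 was larger in size, so these values do not settle whether the numbers pair arrays. The labels used here give no pairing, and the block left 13 Fancc-/- calls.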

Additional observations from a re-analysis of the deposited data

How the results depend on the processing

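The count of member probe sets called higher in Fancc-/- than in WT was 13, and 8 with 1 probe set per gene, where only 8 can be tested. It ran from 10 to 14 when single arrays were left out, and the count called lower stayed at 0 in all alternatives, as did both counts for Fancg-/-. In the double knockout the 4 higher calls became 2 without a filter on dim probe sets, 2 with arrays centred on their medians, 2 with the replicate number as a block, 2 in a fit of only the groups compared, and 0 without Fancg-/- replicates 1 and 3, an alternative added after the values were seen. With single arrays left out, they ran from 0 to 8, and the lower calls from 0 to 2. The adjusted p of the 4 calls ranged over the alternatives from 0.0121 to 0.168 for Ube2h 1418631_at, 0.00799 to 0.125 for Mkrn1 1455504_a_at, 0.0208 to 0.129 for Tent5c 1429682_at and 0.0242 to 0.163 for Gabarapl2 1423187_at. The cause of these losses and gains was not tested. Leaving out arrays also leaves fewer samples, and the part of that was not tested either. No called change turned its sign. The replicate block changed no member call in Fancc-/- or Fancg-/-. Same-numbered Fancg-/- or double-knockout and WT arrays did not deviate together (correlations of -0.41 to -0.06), so there the numbers gave no sign of pairing. Over the 9 alternatives other than leaving out replicates, the Fancc-/- count of the pathway lists was 3 to 11 and that of the double knockout 3 to 4; recounting the lists under the alternatives was added after the values were seen. Signal over background was not measured here; 21 of the 22 probe sets were above the array median on all 12 arrays.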
